A study of Mus musculus with 6 samples.

Results

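Base excision, mismatch, end-joining and translesion repair genes were examined in mouse LSK cells, marrow cells sorted for c-Kit and Sca-1 after lineage depletion, a mixture of haematopoietic stem cells and early progenitors. The list held 42 genes, chosen by name from these 4 repair routes, and 39 of them had a probe set that the array annotation assigns to that gene symbol alone, among 18193 genes measured in this way. Each gene was represented by its probe set with the highest mean signal over the 6 arrays. Neil2, Tdg and Dclre1c had no such probe set and are not analysed here.

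The 3 Ercc1-deficient samples (genotype -/d) came from mice with 1 knockout and 1 truncated allele of Ercc1, whose product and XPF form an endonuclease that cuts DNA at bulky lesions and crosslinks. The 3 Ercc1-proficient samples came from their littermates, +/+ in litters 1 and 2 and +/d in litter 3, so the third control carried a truncated allele too. All animals were F1 offspring of C57BL/6 and FVB/n, aged 22 weeks in litter 1 and 20 weeks in litters 2 and 3, and the Ercc1 alleles are those of the whole animal, not of blood cells alone. The comparison asks which transcripts differ between LSK cells of the 2 genotypes.

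These routes are other than the cutting of bulky lesions and crosslinks by ERCC1-XPF. Some of the listed genes act at such lesions too, among them Polk and Neil3. In base excision repair a glycosylase removes a damaged base, APE1 (Apex1) cuts the backbone, DNA polymerase beta fills the gap and a ligase with XRCC1 seals it, while PARP1 senses the break. Mismatch repair corrects copying errors behind the replication fork, non-homologous end joining rejoins double-strand breaks held by the Ku heterodimer, and translesion polymerases copy past lesions that stall the replicative enzymes. Stem cells at rest depend largely on end joining for double-strand breaks, since homologous recombination needs a sister chromatid.

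Ercc1 itself, the check of the labels, gave signals of 79.9, 34.5 and 44.9 in the deficient and 128, 244 and 176 in the proficient samples of litters 1, 2 and 3. The groups did not overlap, and the log2 difference of -1.36 passed with litter as a block (adjusted p = 0.0138) but not without it (adjusted p = 0.99978). A second Ercc1 probe set gave 30 in all deficient samples and 33.41, 69.65 and 54.92 in proficient ones, and others gave 30 throughout. The position of these probe sets relative to the altered part of the gene is not known here, so the check is a limited one. Among markers of other cells, 10 of 10 granulocyte genes had higher values in deficient samples and 6 rose with the block, with a summed signal of 18175 to 109020 in deficient and 3930 to 35717 in proficient samples. The 7 B and T cell genes summed to 352 to 525 in deficient and 292 to 429 in proficient samples, with Cd79a and Cd3g at the floor of 30 on all arrays and Cd79b at 99.5 to 230. Cd3d was higher without overlap but near the floor, at 39.34 to 50.63 in deficient and 30 to 35.35 in proficient samples. Of all probe sets tested 2.3% were higher without overlap. The 4 erythroid genes summed to 364 to 735 against 243 to 1113, with Hba-a1 at the floor and Klf1 at 43.9 to 744. The 6 macrophage genes summed to 323 to 681 against 317 to 609, with C1qa and C1qc at the floor and Csf1r at 141 to 429. None of these 3 lists had a gene that passed.

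Of 5 markers of LSK and progenitor cells 4 had lower means and 1 a higher one. Flt3, a receptor of multipotent and lymphoid progenitors, gave 90.6, 105 and 105 in deficient and 310, 221 and 197 in proficient samples and fell with the block (log2 difference -1.05, adjusted p = 0.0349). Gata2, a stem and progenitor cell transcription factor, was higher without overlap, at 529 to 761 against 399 to 499 (0.50, adjusted p = 0.389 with the block). The share of all probe sets tested that were higher without overlap was 2.3%. Kit, which defines the gate, gave 92.2 to 125 against 123 to 231, and Ly6a, the gene of Sca-1, is not analysed here. In these bulk samples fewer cells of a type and less RNA per cell cannot be told apart, and the part of these marker genes in the values below was not tested.

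No repair gene of the list passed either test. Of the 36 genes bright enough to be tested, 0 passed at an adjusted p under 0.05 in limma, against 0% of 22519 probe sets without a litter term and 0.835% with litter as a block. At an unadjusted p under 0.05 the count was 0 of 36 in both fits, against 2.57% of all probe sets without and 11.5% with the block. Of the 39 measured genes 15 had a mean above and 23 a mean below that of their controls, and the median log2 difference (deficient minus proficient, on the log2(signal + 30) scale) was -0.08, or 0.01 when each array was centred on its own median. Among the 36 tested genes the median was -0.12, with 13 above and 23 below 0 (36.1% above). Over all 22519 probe sets tested the median was -0.03, with 46% above and 54% below 0, and it was 0.06 after the same centring.

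A range for the change in each gene is given by the 95% intervals of the blocked fit, taken gene by gene. Their standard errors are moderated by limma, which draws each gene's variance towards a trend over all tested probe sets. With 3 pairs a gene's own spread counts for little, so the widths rest largely on that trend. Xrcc5 differed by 0.18, -0.21 and -1.24 in litters 1, 2 and 3, yet its interval was -0.93 to 0.08. The intervals are thus not what the 3 pairs of a gene would give alone. On the log2(signal + 30) scale all 36 intervals included 0 and lay within 1 log2 unit, from a lowest bound of -0.96 for Polk to a highest of 0.96 for Polh. That is not a limit on the fold change in signal, which the added 30 shrinks. With no pseudocount 8 of the 36 intervals went past 1 log2 unit, a 2-fold change, among them Neil3, Nthl1, Mpg, Xrcc5, Xrcc6 and Polk, which were above the floor on all arrays, and the bounds ran from -1.36 for Xrcc5 to 1.09 for Neil3. With median centring the interval of Polh was 0.05 to 1.04 and that of Polq 0.05 to 0.72, so these 2 left out 0 (adjusted p = 0.338 and 0.305 with the block). Of the 39 genes 27 were above the floor of 30, the smallest value in the deposited data, on all 6 arrays, 11 were at it on 1 to 5 arrays and Polm on all 6. A difference below the floor cannot be seen.

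**Figure D1:**
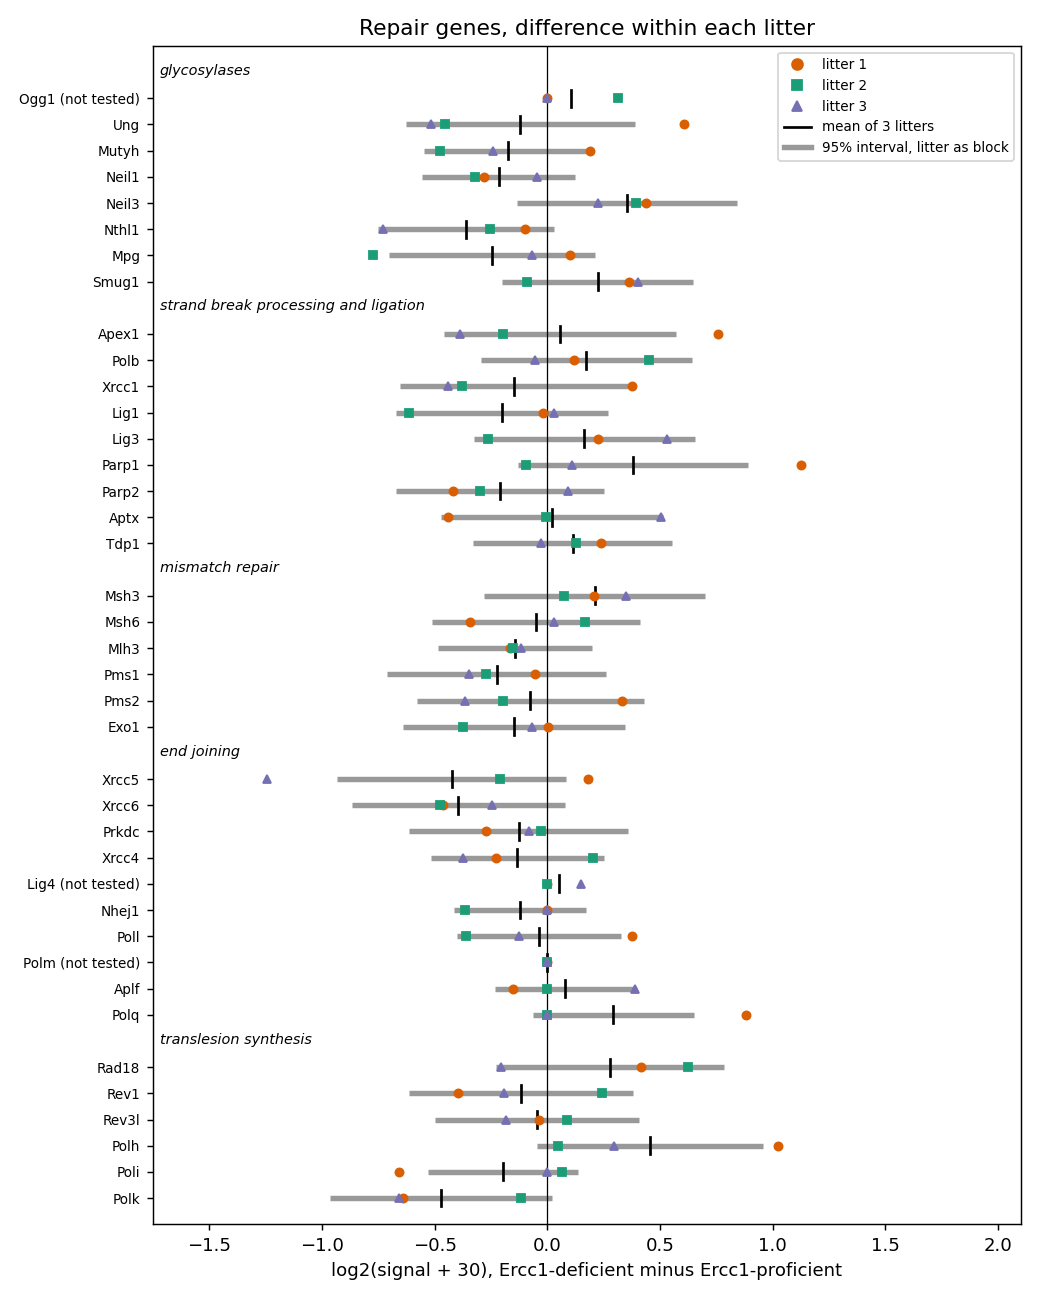
Difference between the Ercc1-deficient and the Ercc1-proficient littermate in log2(signal + 30) for each of the 39 measured repair genes, by role; symbols are the 3 litters, black ticks their mean and grey bars the 95% interval with litter as a block, given for the 36 genes tested. All grey bars cross 0 and stay between -0.96 and 0.96.

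Direction was the same in all 3 litters for 10 of the 36 tested genes. Lower in each deficient littermate were 7 genes (19.4%, against 17% of all probe sets tested), namely Neil1, Nthl1, Mlh3, Pms1, Xrcc6, Prkdc and Polk. Higher in each were 3 (8.33%, against 11.3%), namely Neil3, Msh3 and Polh. The count became 11 of 39 with median centring, which also gives values at the floor a difference. Centring raised the median over all probe sets tested too, from -0.03 to 0.06. The share of all probe sets higher in each litter was not counted after centring. The signals of the 2 groups did not overlap for 1 gene, Polk, which was lower, against 4.89% of probe sets that were lower and 2.3% that were higher without overlap.

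Among the DNA glycosylases, the enzymes that start base excision, 8 of 10 were measured and 7 tested, with a median log2 difference of -0.18 over the tested ones. Nthl1, which removes oxidised pyrimidines, gave signals of 36, 48.1 and 33.8 in deficient and 40.7, 63.1 and 75.7 in proficient samples of litters 1, 2 and 3. The deficient sample was the lower one in every litter, but the groups overlapped and the log2 difference of -0.36 did not pass (standard error 0.19, adjusted p = 0.490 with the block). Neil3, a glycosylase of oxidised bases and crosslinks that is made in dividing cells, gave 182, 102 and 98 in deficient and 126, 70.2 and 79.4 in proficient samples. It was the higher one in every litter, with a log2 difference of 0.35 (standard error 0.24, adjusted p = 0.610 with the block) that was 0.12 without the deficient array of litter 1, while its other probe set stood at -0.12.

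Ung, which removes uracil from DNA, moved in opposite directions between litters. Its signal was 1125 in deficient and 728 in proficient cells of litter 1, 974 and 1342 in litter 2, and 823 and 1190 in litter 3. The differences of 0.61, -0.45 and -0.52 left a mean of -0.12 (standard error 0.25, adjusted p = 0.885 with the block). Mutyh, which removes adenine opposite oxidised guanine, and Mpg, the alkyladenine glycosylase, had the same order of signs, with differences of 0.19, -0.48 and -0.24 and of 0.10, -0.77 and -0.07. Neil1 gave 32.4 to 44.8 in deficient and 33.6 to 63.4 in proficient samples, near the floor. Smug1, a second uracil glycosylase, gave 49.3 to 90.5 against 30 to 63.7. Ogg1, the glycosylase of 8-oxoguanine, was above the floor on 1 array, at 44.7 in the deficient sample of litter 2, and was too weak to be tested.

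All 9 genes that process and seal the cut strand were tested, and 6 had a mean above and 3 a mean below 0, with a median log2 difference of 0.06. Apex1, the main abasic site endonuclease, followed the litters as Ung did. It gave 1829, 1602 and 1391 in deficient and 1071, 1838 and 1827 in proficient samples, so the proficient sample of litter 1 was the lowest of all 6. The mean difference was 0.06 (standard error 0.25, adjusted p = 0.945 with the block), and it was -0.29 without litter 1. Its other 2 probe sets had means of -0.08 and -0.06.

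Parp1, the main sensor of single-strand breaks, gave 1527, 748 and 759 in deficient and 683, 801 and 701 in proficient samples. The deficient sample of litter 1 stood above the other 5, and the mean log2 difference was 0.38 (standard error 0.25, adjusted p = 0.594 with the block). It was 0.05 without that array and 0.01 without litter 1. In 1 of its other 3 probe sets that sample was also the highest, at 213 against 94.5 to 185, with a smaller difference of 0.18 in litter 1. The means of the other 3 were -0.45, 0.02 and -0.43, and the mean over all 4 probe sets of the gene was -0.12. Parp2, the related polymerase, gave 339, 306 and 459 against 464, 384 and 429, a log2 difference of -0.21 (standard error 0.22, adjusted p = 0.758 with the block) in overlapping groups.

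**Figure D2:**
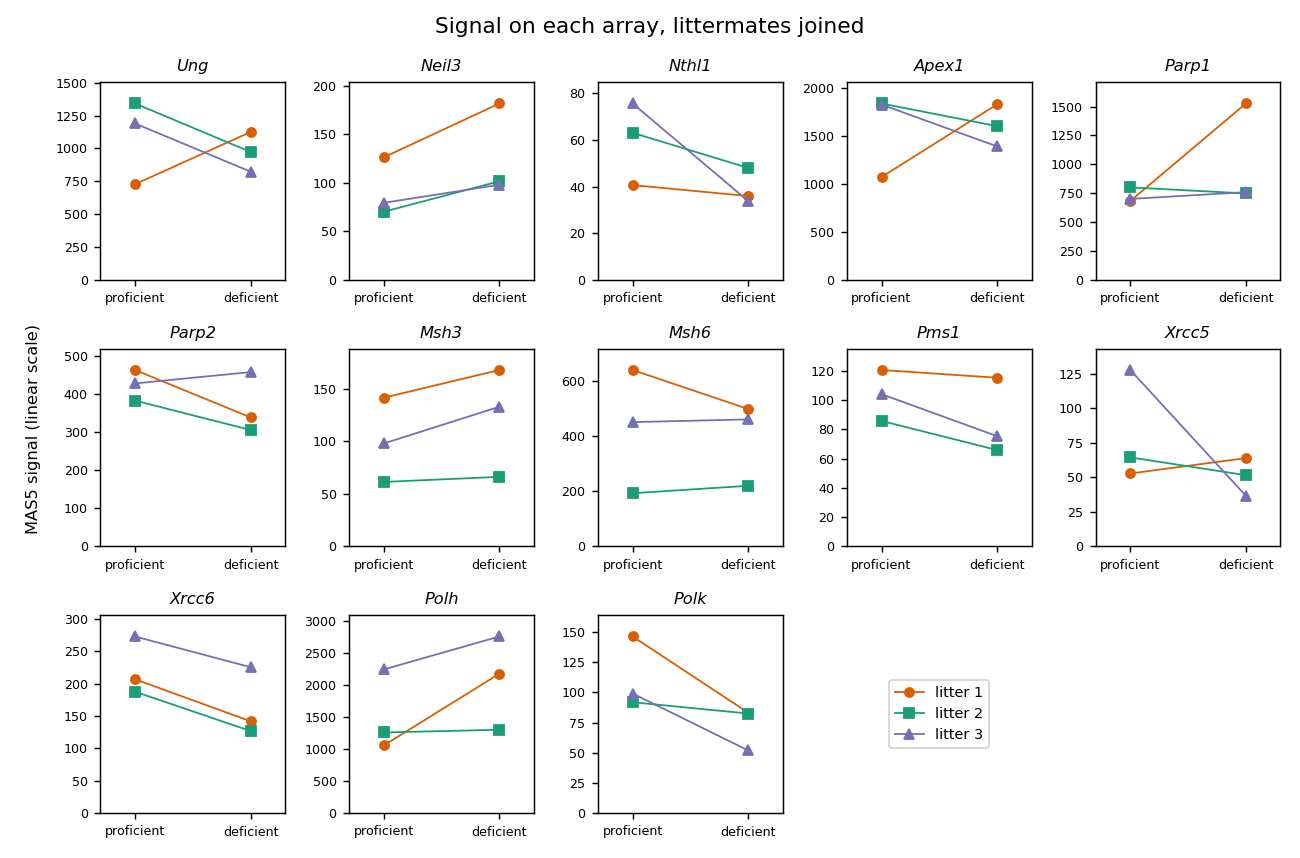
Deposited signal on a linear scale for 13 repair genes, with the proficient and deficient sample of each litter joined by a line. Polk is the gene whose groups do not overlap, and Ung and Apex1 cross, with the proficient sample of litter 1 the lowest at 728 and 1071.

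The scaffold Xrcc1 went from 91 to 127 in litter 1 and from 208 to 153 and from 185 to 128 in litters 2 and 3, proficient to deficient. Polb, the gap-filling polymerase, gave 186, 330 and 379 against 169, 233 and 394. Lig1, the ligase of replication and long-patch repair, gave 571, 268 and 374 against 579, 426 and 365, and Lig3, the partner of XRCC1, 192, 199 and 227 against 160, 245 and 148. In these 3 genes the groups overlapped and the sign differed between litters. Aptx and Tdp1, which clean blocked strand ends, had mean differences of 0.02 and 0.11.

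Litter 1 had the sign opposite to both other litters in 10 of the 36 tested genes (27.8%, against 16.4% of all probe sets tested). In 9 of those 10 the difference of litter 1 was the positive one, against 55.5% of all such probe sets. The 9 were Ung, Mutyh, Mpg, Apex1, Xrcc1, Pms2, Exo1, Xrcc5 and Poll, and the tenth was Msh6. Among genes above the floor on all arrays the share was 8 of 27 (29.6%), against 20% of all such probe sets, a count made after the values were seen. Such reversal was not confined to litter 1. Litter 2 was the odd one in Smug1, Lig3, Parp1, Xrcc4, Rev1 and Rev3l. In Polb, Lig1, Parp2, Aptx, Tdp1 and Rad18 it was litter 3. The shares of all probe sets with litter 2 or litter 3 as the odd one were not counted. Litter 1 was the oldest and also stood apart in control probe sets. Its 18S ribosomal RNA signal was 7.26 and 7.21 on the log2 scale in the deficient and the proficient sample, against 9.51 to 11.8 on the other arrays. The Gapdh 3' signal exceeded the 5' signal by 4.71 and 3.64 on the log2 scale, against 2.30 to 2.99, and the mean spike-in signal of its deficient sample was 12.2, against at most 11.4 on the others. The beta-actin gap, at 4.97 and 4.05 against 3.30 to 4.43, did not set the litter apart. Its proficient sample had the lowest summed signal of the 39 repair genes, 8447 against 8514 to 11370 in the others. It also had the lowest summed signal of 12 S-phase genes, 15538, against 21314 and 23410 in the other proficient and 24390 to 26900 in the deficient samples. The same sample had the highest summed signal of 11 G2 and mitosis genes, 9239 against 5098 to 8776 on the other arrays. Of those S-phase genes 10 of 12 had higher means in deficient samples, 0 of 12 passed with the block in limma (2 had an unadjusted p under 0.05), and the medians were 0.35, 0.11 and 0.09 in litters 1, 2 and 3. The part of age, of these control values and of the S-phase and mitosis genes in the repair genes' values was not tested.

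All 6 mismatch repair genes were tested, 1 with a mean above and 5 below 0, and their median log2 difference was -0.11. Msh3, a mismatch recognition protein that binds insertion loops, gave 168, 66.3 and 133 in deficient and 142, 61.4 and 98.1 in proficient samples. It was slightly higher in every deficient littermate while the litters differed more from each other than the genotypes did, with a log2 difference of 0.21 (standard error 0.24, adjusted p = 0.768 with the block). A second, weaker Msh3 probe set had a mean of -0.24 and was at the floor in all deficient samples. Msh6, the recognition protein for single mismatches, gave 497, 219 and 460 against 638, 192 and 450. Its difference of -0.05 (standard error 0.22, adjusted p = 0.948 with the block) became 0.04 with median centring.

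Of the MutL genes, which act after recognition, Pms1 gave 115, 65.9 and 75.4 in deficient and 121, 85.8 and 104 in proficient samples. Each deficient sample was below its littermate, with a log2 difference of -0.22 (standard error 0.23, adjusted p = 0.756 with the block). Pms2 gave 129, 89.3 and 108 against 96.3, 107 and 148, and Mlh3 lay between 30 and 58.6 on all arrays. The exonuclease Exo1, which removes the strand with the error, gave 104, 80.4 and 150 against 104, 113 and 158.

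For end joining, 10 of 11 genes were measured and 8 tested, 2 with a mean above and 6 below 0, and the median over the tested genes was -0.12. The Ku heterodimer, the first protein on a broken end, is made of Ku80 (Xrcc5) and Ku70 (Xrcc6). Xrcc6 gave 142, 127 and 226 in deficient and 207, 188 and 273 in proficient samples. It was lower in each deficient littermate, by 0.46, 0.47 and 0.25 on the log2 scale, but the groups overlapped and the mean of -0.39 did not pass (standard error 0.23, adjusted p = 0.538 with the block, interval -0.87 to 0.08). Xrcc5 gave 64, 51.6 and 36.7 against 52.9, 64.5 and 128. Its mean of -0.42 (standard error 0.25, adjusted p = 0.541 with the block) came mostly from litter 3, at -1.24, and litter 1 had the opposite sign.

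Prkdc, the catalytic subunit of the kinase that Ku recruits, gave 117, 112 and 139 in deficient and 148, 115 and 149 in proficient samples, a mean difference of -0.13. Xrcc4, the scaffold of the ligation complex, gave 30, 69.3 and 37.3 against 40.3, 56.2 and 57.2. The ligase Lig4 itself, its partner Nhej1 and the accessory factor Aplf stayed between 30 and 48.6 on every array, so that little can be said of them. The polymerases Poll and Polm, which fill gaps at the ends, gave 30 to 52.7 and 30 throughout. Polq, the polymerase of the alternative, microhomology-based route, was above the floor on 1 array only, at 80.4 in the deficient sample of litter 1, and its log2 difference of 0.29 (adjusted p = 0.550 with the block) rested on that sample.

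Upstream sequences are shown for Nthl1 and Xrcc6 because their values were lower in all 3 deficient littermates and their windows hold an E2F-type site; E2F factors drive genes of the G1/S transition. The octamers TTTGGCGC, TTTCCCGC, TTTCGCGC and TTTGCCGC were searched on both strands in the 250 bases before each start site of RefSeq (GRCm38.p6), where 35 of the 42 listed genes matched 43 windows. Nthl1, Xrcc6 and Msh3 had a match, 3 of 43 windows (6.98%) against 1.86% of all 32851 windows. Neil1, Mlh3, Pms1, Prkdc and Polk were also lower in all 3 deficient littermates, and no match was found for them, though not every listed gene had a window. Msh3 went the other way: its brightest probe set was higher in all 3 deficient littermates, by 0.21, 0.07 and 0.35 on the log2 scale. A link between these sites and the values was not tested. Matches are in capitals.
Nthl1, chr17:24632432-24632681, plus strand: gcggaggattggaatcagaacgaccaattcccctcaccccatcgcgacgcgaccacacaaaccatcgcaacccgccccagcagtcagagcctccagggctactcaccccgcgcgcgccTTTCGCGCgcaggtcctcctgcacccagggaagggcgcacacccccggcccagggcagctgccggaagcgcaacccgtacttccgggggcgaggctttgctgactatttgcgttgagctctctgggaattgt
Xrcc6, chr15:82016119-82016368, plus strand: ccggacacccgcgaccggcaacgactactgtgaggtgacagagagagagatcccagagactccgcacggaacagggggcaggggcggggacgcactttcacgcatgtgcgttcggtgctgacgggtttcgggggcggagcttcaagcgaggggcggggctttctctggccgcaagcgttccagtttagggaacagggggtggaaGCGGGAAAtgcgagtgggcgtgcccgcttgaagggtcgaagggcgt
The match ended 124 bases before the start site in Nthl1 and 38 in Xrcc6.

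These were the narrower of 2 searches, and the choice between them was made after the first result was seen. The first covered 300 bases, including those just after the start site, and there the octamers were in 5 of 43 windows (11.6%, against 2.26% of all), with Lig1 and Msh6 added to the 3 genes above. It also held 4 other motifs, searched on both strands, and all 5 were in a larger share of the repair genes' windows than of all windows at either length. In the 250-base windows the CCAAT box was in 44.2% against 33.8%, the E-box CACGTG in 16.3% against 6.02%, the GC box GGGCGG in 53.5% against 32.7%, and the palindromic NRF1 motif in 6.98% against 0.782%. The E2F-type octamer was thus 1 of 5 motifs with such a surplus. Base composition was not matched between the windows, and such matches describe the sequence and show no binding.

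All 6 translesion genes were tested, 2 with a mean above and 4 below 0. Polk, the polymerase that bypasses bulky guanine adducts, gave 83.1, 82.4 and 51.8 in deficient and 146, 91.8 and 99.1 in proficient samples. All deficient samples lay below all proficient ones, with the highest deficient at 83.1 and the lowest proficient at 91.8. The log2 difference of -0.47 was the largest in size of the 39 genes and did not pass (standard error 0.24, adjusted p = 0.463 with the block, interval -0.96 to 0.02). A second Polk probe set, at the floor on 3 arrays, had a mean of 0.06.

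Polh, the polymerase that copies past ultraviolet pyrimidine dimers, gave 2176, 1300 and 2758 in deficient and 1056, 1257 and 2243 in proficient samples. It was higher in each deficient littermate, by 1.02, 0.05 and 0.29, and the mean of 0.45 did not pass (standard error 0.24, adjusted p = 0.498 with the block) and was 0.17 without litter 1. Its other 3 probe sets were at or near the floor, with 38.9 as their highest value, and the bright one carries the suffix that Affymetrix gives to probe sets whose probes can also match other transcripts, as does the brightest one of Apex1. Whether that signal is Polh alone was not tested.

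Rad18, the ubiquitin ligase that marks PCNA to call in these polymerases, had 4 tested probe sets, all with a positive mean, of 0.28, 0.57, 0.05 and 0.35. Its brightest gave 241, 162 and 90.8 in deficient and 173, 94.9 and 110 in proficient samples. The second was higher in each deficient littermate, at 198, 72.1 and 210 against 101, 57.5 and 120, where the block gave an unadjusted p of 0.0274 and, adjusted, 0.356. It was the only one of 57 tested probe sets of the listed genes with an unadjusted p under 0.05, and was chosen after its values were seen. Rev1, the scaffold of translesion synthesis, gave 121, 105 and 157 against 169, 84.3 and 183, and Rev3l, the catalytic subunit of polymerase zeta, 595, 587 and 399 against 611, 551 and 458. Poli was above the floor on 2 arrays, at 64.6 in the proficient sample of litter 1 and 32.9 in the deficient sample of litter 2.

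Probe sets of one gene often disagreed. Of the 12 genes with more than 1 tested probe set, 9 had means on both sides of 0, and Rad18, Lig3 and Mpg had means of 1 sign. None of the 57 tested probe sets passed in either fit.

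**Figure D3:**
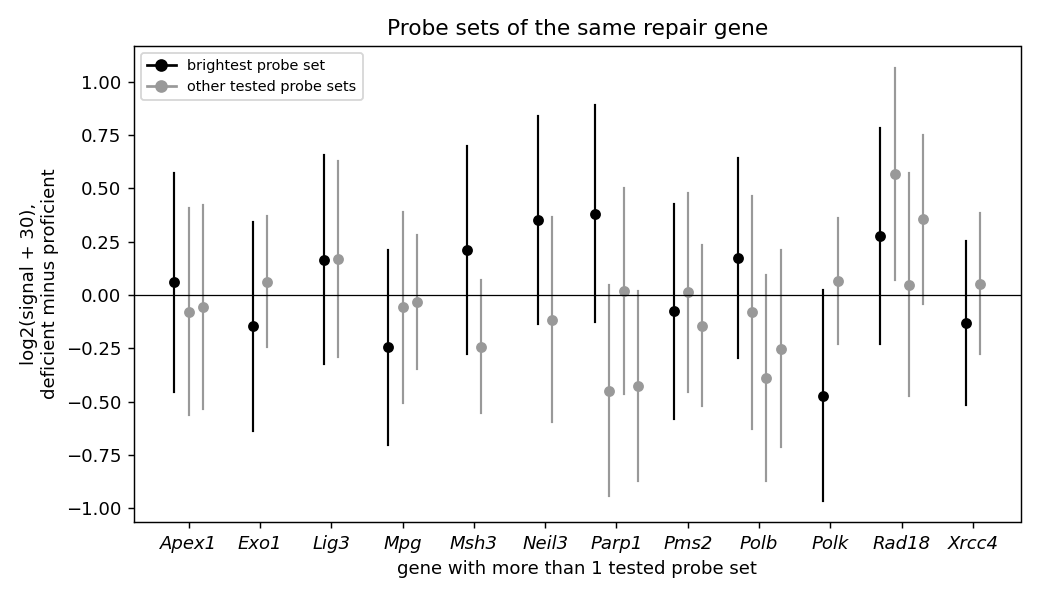
Mean log2 difference, deficient minus proficient, with its 95% interval (litter as a block) for every tested probe set of the 12 genes that had more than 1; black marks the brightest probe set. Parp1 runs from -0.45 to 0.38 between its probe sets, and all 4 of Rad18 lie above 0.

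Other genes of the same routes were read from a second list. Of 29 listed, 25 were measured and 24 tested, with 11 means above and 13 below 0 and a median of -0.04 over the tested genes. With litter as a block 0 rose and 1 fell, against 0.315% and 0.52% of all probe sets, and without the block the count was 0. The 1 was Dntt, the template-free polymerase of the family of Polb, Poll and Polm, used by early lymphoid cells in end joining of antigen receptor genes. It gave 492, 331 and 367 in deficient and 3030, 1464 and 1816 in proficient samples (log2 difference -2.27, standard error 0.22, adjusted p = 6.53e-06 with the block). Fen1, the flap endonuclease of long-patch base excision and replication, gave 2978, 3014 and 2294 against 852, 2905 and 1472, a log2 difference of 0.82 that did not pass (adjusted p = 0.214 with the block) and was 1.77 in litter 1. The probe sets of Dntt and Fen1 carry the same suffix as the bright one of Polh. Whether these signals come from Dntt and Fen1 alone was not tested. Trp53bp1, which directs breaks to end joining, gave 1035, 1103 and 445 against 1291, 1282 and 1016 (-0.55, adjusted p = 0.361 with the block).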

How the data were processed

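Total RNA of 6 LSK samples was amplified linearly in 2 steps and put on 1 Affymetrix Mouse Genome 430 2.0 array each, per the labels' protocols. The authors deposited linear signal intensity values from MAS5, as the submitters' processing notes state; the sources used here do not give the scaling target or the step behind the floor of 30, where 52.3% to 58.6% of each array's signals lay. Control probe sets (64) were left out. The 22519 of 45037 probe sets with a mean signal at or above the median were fitted on log2(signal + 30) with limma 3.58.1 in R 4.3.3 (eBayes, variance trend), by group alone and, as an alternative, with litter as a block, with Benjamini-Hochberg adjustment over all of them. Labels name arrays of equal number as littermates, which pairs the samples; littermates' deviations from their group means correlated with r = 0.77, 0.67 and 0.46. Whether a sample is 1 mouse is not stated, so p-values describe samples and not mice. Without the block they rest on the spread between samples, and with it on the spread of the differences between littermates. The 3 arrays a group limit the precision. Each probe set's variance, and so its standard error, interval and p-value, was drawn by eBayes towards the trend over all tested probe sets. The platform annotation gave 1 symbol to 34945 probe sets, several to 932 and none to 9160; only the first were used. The fits were also run on simulated data, with litter effects and noise drawn from these data and no floor. That run required only that the mean size of the changes put in came back, so it is no check on the calls made here.

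The genes and lists were chosen with earlier results of these data known. By rule, values on each array were given for genes that passed with the block, genes whose groups did not overlap and, in each of 5 roles, the 2 of smallest p and the brightest; other genes so given, the reversal between litters and the upstream sequences, their window length and the motif shown were chosen after the values were seen. One upstream sequence is not reported here. B and T cell, erythroid, macrophage and mitosis markers had median log2 differences of 0.04, -0.09, 0.01 and 0.32, and LSK markers of -0.50. Alternatives changed normalization, pseudocount, filter, variance model, probe set choice and the arrays used.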

Additional observations from a re-analysis of the deposited data

Results flagged for a closer look

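In 4 of the 13 genes given by rule, the difference between littermates in litter 1 had the sign opposite to both other litters. Litter 1 was aged 22 weeks and the others 20 weeks. Among all 36 tested genes the count was 10 (27.8%), against 16.4% of all probe sets tested. In other tested genes litter 2 or litter 3 was the odd one, and the shares of all probe sets for those were not counted. The log2 difference was 0.61 in litter 1 for Ung against -0.45 and -0.52 in litters 2 and 3, and 0.76 for Apex1 against -0.20 and -0.39. It was 0.18 for Xrcc5 against -0.21 and -1.24, and -0.34 for Msh6 against 0.17 and 0.03. Litter 1 also had the lowest 18S ribosomal RNA signal, 7.21 and 7.26 against 9.51 to 11.8 on the log2 scale, and the widest Gapdh 3' to 5' gap, 3.64 and 4.71 against 2.30 to 2.99. The difference between litters was not tested, since the older age has 1 pair of samples; age, litter and these control values cannot be told apart.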

How the results depend on the processing

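The count of repair genes that passed was 0 under all 26 alternatives, with 21 to 39 of them tested. The fit with litter as a block called 188 of 22519 probe sets, against 0 without it. With the block the count was 130 after quantile normalization, 332 after median centring, 215 with no pseudocount, 154 with a pseudocount of 100, 216 with only probe sets of a mean signal of at least 90.2 and 114 with no variance trend. It was 0 with no filter and without any 1 litter, and it was 0 in every fit without the block. The count thus depended on these settings. Leaving out a litter also leaves fewer arrays to estimate the spread, so it cannot show what each litter adds. With or without the block, median centring moved the median log2 difference over the 39 genes from -0.08 to 0.015. Over all probe sets tested it moved from -0.029 to 0.062. Centring also moved the genes higher in all litters from 3 to 11, a rise not set against all probe sets, and Msh6 to 0.041. Quantile normalization turned Apex1 to -0.029. Averaging all probe sets of each gene turned Apex1 to -0.026, Parp1 to -0.12 and Msh3 to -0.0080.

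Leaving out 1 array moved the median from -0.10 to 0, and leaving out litter 1, 2 or 3 under the block gave -0.055, 0 and -0.015, with 4 to 6 genes then higher in the remaining litters. Without 1 array, Ung ranged from -0.38 to 0.051, Apex1 from -0.19 to 0.19, Msh3 from -0.023 to 0.51, Msh6 from -0.50 to 0.29, Parp1 from 0.051 to 0.55, Polh from 0.22 to 0.77, Neil3 from 0.12 to 0.55 and Xrcc5 from -0.61 to -0.15. Without 1 litter under the block, Apex1 was as low as -0.29 (litter 1), Msh6 as high as 0.097 (litter 1), Ung 0.046 (litter 2) and 0.078 (litter 3), Parp1 0.0084 and Polh 0.17 (litter 1), and Nthl1 -0.18 and Xrcc5 -0.015 (litter 3). Of 338 values of single genes under the alternatives, 319 kept their sign and 0 passed. Settings that changed only the model, the filter or the probe sets tested left each difference unchanged, so its sign could not change there. Normalization and pseudocount settings gave the same difference with and without the block and were counted in both. The 319 is therefore no measure of stability. Where a change in sign occurred, the cause was not tested. Genes at the floor have no measured difference, and the added 30 shrinks differences most near it.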
